A study of Homo sapiens with 12 samples.

Results

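Intronic distal ARID1A regions are stretches of chromatin inside genes, away from transcription start sites (TSSs), where 2 antibodies against ARID1A both gave signal. They were chosen by their positions in the deposited region lists. A region of the Abcam antibody on chromosomes 1 to 22 or X was kept if it was under 4000 bp wide, overlapped a region of the CST antibody and overlapped no H3K4me3 region. It also had to lie over 10 kb from any protein-coding TSS and over 1 kb from any lncRNA TSS, with its midpoint inside a protein-coding gene and outside exons. This left 6132 regions, which were 21.4% of the 28609 Abcam regions shared with CST and came from 37501 Abcam regions in all. The readings of both ARID1A antibodies and of H3K4me3 chose these regions, so their overlap between antibodies and their lack of H3K4me3 are descriptions and not findings.

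The data were CUT&RUN profiles of RT112, a human bladder transitional cell carcinoma line described by the study as ARID1A wild type. In CUT&RUN an antibody brings a nuclease to its target in permeabilised cells, and the DNA fragments it releases are sequenced. The 12 samples formed 4 groups of 3, all from RT112 cells grown in the same medium with no treatment named, which differed in the antibody: ARID1A (Abcam), ARID1A (CST), H3K4me3 or IgG. The 3 region lists used here (Abcam, CST and H3K4me3) held positions merged over replicates, so no value has a replicate error, and the depth behind a region is unknown. Intervals given here are exact 95% intervals unless named otherwise and cover counting error only. No ARID1A-deficient cells were in these lists, and 1 cell line is 1 genotype. H3K4me3 was listed at the promoters of KRT8, KRT18, KRT19, ELF3, GATA3, PPARG and TP63, which mark urothelial or other epithelial cells. It was listed at none of PTPRC and CD3E (blood cells), ALB and APOA1 (liver), ACTA1 and CKM (muscle), SNAP25 and SYP (neurons), PECAM1 (endothelium) or COL1A1 (fibroblasts). UPK2 and KRT5, also urothelial genes, lacked an H3K4me3 region but had regions of both ARID1A antibodies at the promoter, as had COL1A1.

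ARID1A is the DNA-binding subunit that defines the canonical BAF form of SWI/SNF, a complex that uses ATP to move nucleosomes. In epithelial cells BAF is found both at promoters, which carry H3K4me3 when active, and at distal enhancers, which mostly do not. Many enhancers lie in introns, and an intronic enhancer may act on the gene that holds it or on a neighbour. AP-1, a dimer of FOS and JUN proteins, is known to recruit BAF to enhancers and reads the 7 bases TGACTCA or, on the other strand, TGAGTCA.

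Of 18 words searched, the AP-1 word was the one whose share differed most between the centres of these regions and their flanks, so it is shown here in its sequence context. From 7 of the 8 genes with the most regions, the widest region with an AP-1 word in its central 200 bp is printed. The genome is hg38, the + strand is printed 5′ to 3′, and capitals mark the AP-1 word with 30 bases on each side.
MACROD2 intron 3, chr20:14220711-14220777: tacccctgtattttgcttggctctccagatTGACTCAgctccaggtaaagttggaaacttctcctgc
MAML2 intron 1, chr11:96259619-96259685: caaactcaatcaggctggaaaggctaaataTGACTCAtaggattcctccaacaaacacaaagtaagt
RAD51B beyond the canonical transcript, chr14:68521056-68521122: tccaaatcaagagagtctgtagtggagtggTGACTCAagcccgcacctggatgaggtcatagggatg
EGLN3 upstream of the canonical transcript, chr14:34237865-34237931: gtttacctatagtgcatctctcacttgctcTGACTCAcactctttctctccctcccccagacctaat
RUNX1 intron 7, chr21:34813695-34813761: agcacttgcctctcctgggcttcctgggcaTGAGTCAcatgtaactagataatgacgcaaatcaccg
PDE4D intron 1, chr5:59786658-59786724: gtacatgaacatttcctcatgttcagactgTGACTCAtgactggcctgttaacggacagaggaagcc
PRKCE intron 2, chr2:45938929-45938995: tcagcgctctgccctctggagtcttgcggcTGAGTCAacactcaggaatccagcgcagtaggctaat
The PDE4D word lay 1 bp from the midpoint of a region of 1931 bp, and the PRKCE word 92 bp from that of a region of 2149 bp. Some AP-1 words lie in Alu elements, repeats present in very many copies. Of the 1218 regions with a central AP-1 word, 17 (1.40%) had it followed by the Alu letters CNNCTGTA, against 5 of 156 flanks with the word (3.21%).

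The regions were a median of 1534 bp wide, with an interquartile range from 1187 to 2011 bp. Their CST partners had a median width of 1464 bp. The antibodies shared a median of 1230 bp, which was 86.2% of the Abcam width, and the midpoints differed by a median of 154 bp. The widest member was 3998 bp, in BABAM2 at chr2:28273571-28277568, and the narrowest was 327 bp. Just outside the width limit lay a region of 4000 bp in RIN2, and 158 regions met every criterion but width. The member nearest to a protein-coding TSS was 10002 bp away, in FOXP1, and a region 10000 bp away in ADGRV1 just missed. The member nearest to a lncRNA TSS was 1015 bp away, in CNIH3, and a region 979 bp away in NDUFV2 just missed.

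Most regions lay well past the distance limit. The median distance to the nearest protein-coding TSS was 35.2 kb, 2227 regions (36.3%) were over 50 kb away and 957 (15.6%) over 100 kb. For 5049 regions (82.3%) the nearest protein-coding TSS belonged to a host gene, and for 1083 (17.7%) it belonged to another gene. The widest region illustrates this: it lay in intron 10 of BABAM2, a DNA repair gene, and its nearest TSS, 115234 bp away, was that of FOSL2, which encodes an AP-1 subunit. Where the host was nearest, 69.5% of the nearest genes had H3K4me3 at the promoter, against 58.6% (635 of 1083) where another gene was nearest. Among the 1871 regions whose hosts all lacked H3K4me3, 196 (10.5%) were nearest to another gene that had it. Which gene a region acts on was not measured.

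Of the 6132 regions, 5976 lay in 1 protein-coding gene and 156 in several. A region at chr5:141003692-141005211 lay in 15 genes at once, all of the protocadherin alpha cluster, whose annotated gene bodies overlap. Counted once per gene, there were 6304 pairs of a region and a gene. Introns could hold a member only where the distance rules left room, outside exons, assembly gaps and H3K4me3 regions, and this eligible intron came to 894 Mb in 11811 genes. Of these genes, 2755 (23.3%) were hosts of at least 1 region. Hosts had a median of 90.2 kb of eligible intron, against 19.5 kb in the other genes. Densities are therefore given per Mb of eligible intron.

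Most hosts held few regions. There were 1417 hosts (51.4%) with 1 region, 878 with 2 or 3, 415 with 4 to 9 and 45 with 10 or more. Those 45 held 603 pairs, or 9.57% of all. Neighbouring regions of a gene were a median of 15.4 kb apart, and 980 of 3549 gaps (27.6%) were under 5 kb.

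MACROD2, a very long gene for an ADP-ribosylhydrolase, had the most regions, 27 in 1958 kb of eligible intron, of which 17 lay in intron 5. MAML2, a coactivator of Notch receptors, had 22 in 351 kb, and 19 of them lay in intron 1. These differ in density, at 1.38 regions per 100 kb in MACROD2 and 6.27 in MAML2. MYO1E, a class I myosin of the cell cortex, was denser still among the genes with 14 or more regions, at 8.80 per 100 kb (14 regions, 10 in intron 1). DST (16 regions), a linker of keratin filaments to hemidesmosomes, and LPP (16), a focal adhesion protein, had 5.14 and 2.51 per 100 kb. PDE4D (17), a cAMP phosphodiesterase, PRKCE (17), a protein kinase C, and THSD4 (15), a matrix protein, had 1.27, 3.45 and 2.43 per 100 kb. Of the 15 genes with the most regions, 13 had H3K4me3 at the promoter, and SLC25A21 (17 regions) and BASP1 (14) had none, against 58.4% of all genes with eligible intron that had it.

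**Figure D1:**
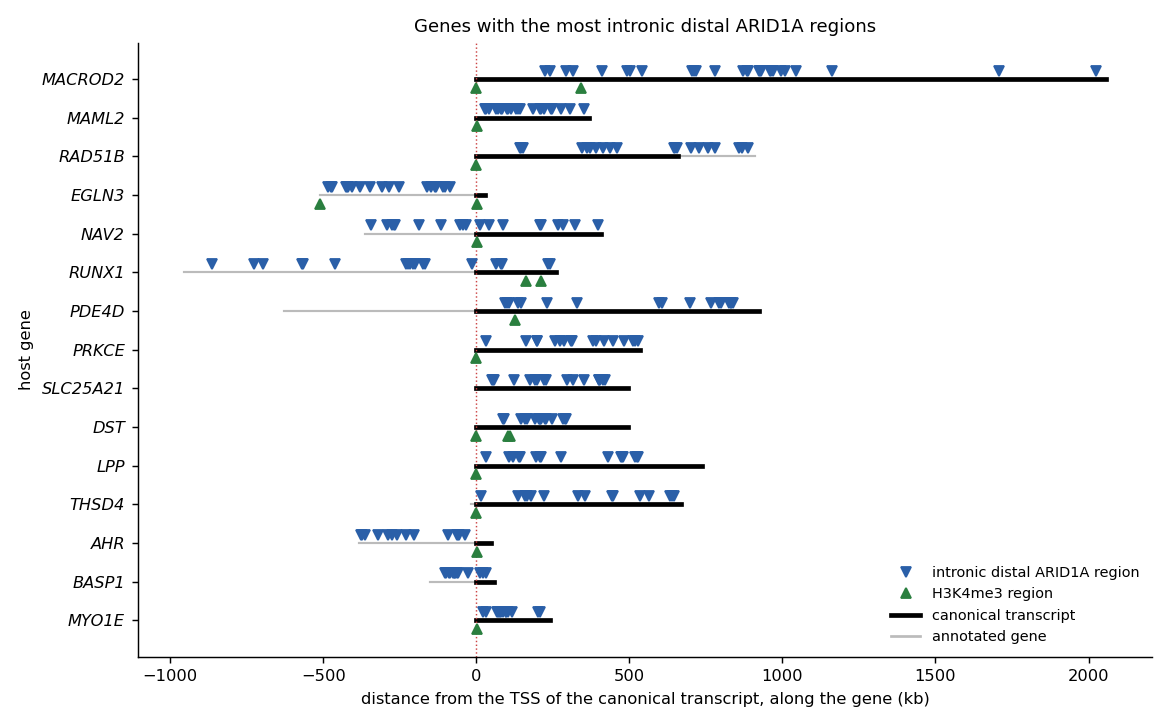
Positions of intronic distal ARID1A regions (blue, above each line) and H3K4me3 regions (green, below) in the 15 genes with the most regions, in kb from the TSS of the canonical transcript along the direction of the gene. Black lines are canonical transcripts and grey lines the whole annotated gene; all 19 regions of EGLN3 and all 14 of AHR lie in the grey part upstream.

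In some hosts the regions lay outside the canonical transcript, in longer annotated transcripts, as the map of regions along host genes shows. None of the 19 regions of EGLN3, a prolyl hydroxylase of the hypoxia pathway, lay within its canonical transcript, and none of the 14 of AHR, the aryl hydrocarbon receptor. In RUNX1, a transcription factor, 5 of 19 did, in NAV2, a cytoskeleton regulator, 9 of 19, in RAD51B, a DNA repair gene, 13 of 20, and in BASP1, a membrane-associated signalling protein, 3 of 14. For these genes the regions outside the canonical transcript may as well be called upstream or downstream as intronic. In all, 5262 regions (85.8%) lay in an intron of a host's canonical transcript.

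Ranked by density among genes with at least 4 regions, small genes stood high. PRSS3, a trypsin gene, had 16.2 regions per 100 kb (4 regions, none within the canonical transcript) and STN1, a telomere maintenance gene, 13.8 (4 regions). BCL2L1, which encodes the survival protein BCL-XL, had 13.6, with all 6 regions in intron 2 of 2. PKP1, a desmosome plaque protein of stratified epithelia, had 11.9, with all 4 in intron 2, and a promoter that none of the 3 lists covered. ANKRD29, MARCHF10 and LPAR3, a lysophosphatidic acid receptor, had such promoters too, with 12.6, 11.3 and 10.2 per 100 kb. PDLIM1, a LIM protein of actin fibres, had 12.1 and EHD4, an endocytic ATPase, 9.58.

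Hosts had H3K4me3 and ARID1A at the promoter more often than the genes they were drawn from. H3K4me3 within 1 kb of a TSS was found at 1783 of 2755 hosts (64.7%, 62.9 to 66.5), against 58.4% of all genes with eligible intron. Both ARID1A antibodies were at the promoters of 1463 hosts (53.1%, 51.2 to 55.0), against 43% of those genes. All of H3K4me3 and both antibodies were at 1272 hosts (46.2%), H3K4me3 without both antibodies at 511 (18.5%), both antibodies without H3K4me3 at 191 (6.93%), and neither at 781 (28.3%). A further look at the 3 lists found 689 hosts (25%) whose promoters none of them covered. Genes with several annotated TSSs had several chances of an overlap, and with the most upstream TSS alone the H3K4me3 share was 57.2% in hosts and 53.8% in all eligible genes.

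The difference was clearer per length of intron than per gene. Genes with H3K4me3 at the promoter had 9.83 regions per Mb (9.54 to 10.1, 4321 pairs in 439 Mb), and genes without it 4.36 (4.17 to 4.56, 1983 pairs in 455 Mb). The rate ratio was 2.26 (2.14 to 2.38, exact conditional test, p = 4.37e-213, adjusted over 18 such contrasts 7.87e-212). Regions of a gene are not independent: the counts per gene were more spread than a Poisson count. The Pearson chi-square per degree of freedom was 1.45 in genes with H3K4me3 and 2.57 in those without. These p-values, and those of the other density ratios below, are therefore too small and the intervals too narrow. Counting each gene once, as host or not, 25.8% of genes with H3K4me3 and 19.8% of those without were hosts, a ratio of 1.31 (Fisher's exact test, adjusted p = 7.50e-14). The most upstream TSS alone gave a rate ratio of 1.85, and genes with at most 200 kb of eligible intron 1.43.

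ARID1A at the promoter went with more intronic regions whether or not H3K4me3 was there. Among genes with H3K4me3, those with both antibodies at the promoter had 10.9 regions per Mb and the others 7.74, a ratio of 1.41 (1.32 to 1.51, exact conditional test, adjusted p = 1.50e-24). Among genes without H3K4me3, the 557 with both antibodies had 10.0 per Mb and the 4355 others 3.77, a ratio of 2.65 (2.38 to 2.95, exact conditional test, adjusted p = 4.49e-58). SLC25A21, a mitochondrial carrier, was the member of the 557 with the most regions (17, of which 10 in intron 1, at 3.59 per 100 kb). ASAP1, an ARF GTPase-activating protein of focal adhesions and invadopodia, was another, with 9 regions at 3.10 per 100 kb. BASP1 (14 regions), MYO16 (10), PSD3 (11) and ZPLD1 (10, none within the canonical transcript) had promoters outside all 3 lists. CPQ and LUZP2, with 12 regions each and no H3K4me3, had a region of 1 ARID1A antibody there.

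Gene length changed this picture. Up to 20 kb of eligible intron, genes with H3K4me3 had 7.90 regions per Mb and genes without it 6.87, a ratio of 1.15 (0.904 to 1.47, exact conditional test, adjusted p = 0.276). From 20 to 50 kb the densities were 7.67 and 7.65, with a ratio of 1.0 (0.860 to 1.17). In these shorter classes a difference was not detectable, though the intervals allow one of up to 1.47 and 1.17. From 50 to 100 kb the ratio was 1.33 (1.18 to 1.5), from 100 to 200 kb 1.90 (1.69 to 2.13) and over 200 kb 3.46 (3.18 to 3.77, 9.57 against 2.77 per Mb). The ratio over 200 kb was itself 3.01 times that up to 20 kb (2.34 to 3.86, Wald interval). The longest genes without H3K4me3 were sparse: 44.3% of them were hosts, against 77.9% of the longest genes with it. The ARID1A ratio of densities within H3K4me3 genes did not differ detectably between these classes, with a ratio of ratios of 0.847 (0.597 to 1.2). Counted once per gene, its ratios of host shares were 1.67, 1.47, 1.15, 1.35 and 1.08 from the shortest to the longest class, and were not called at 50 to 100 kb (adjusted p = 0.0791) and over 200 kb (adjusted p = 0.184, Fisher's exact test).

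**Figure D2:**
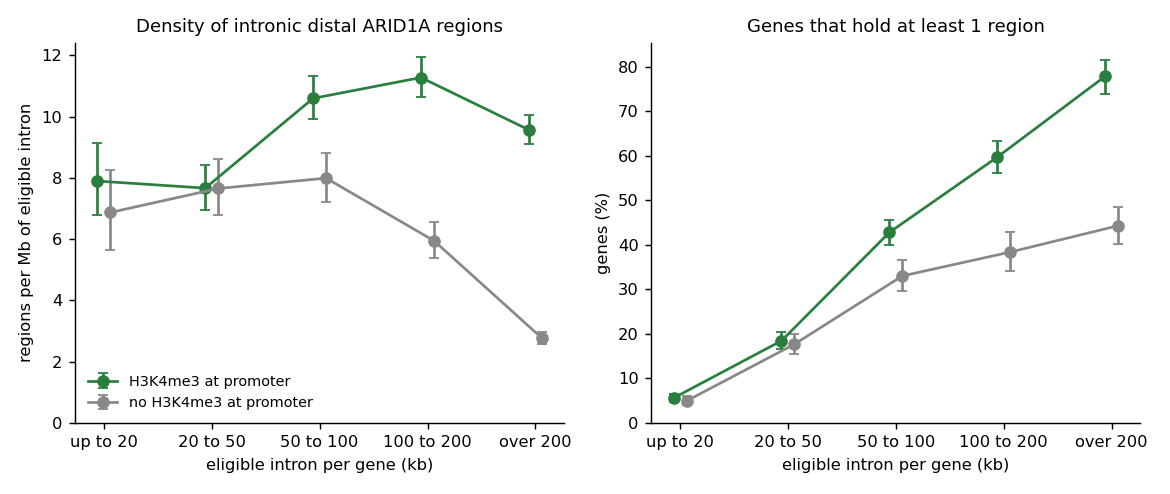
Left, intronic distal ARID1A regions per Mb of eligible intron, and right, the percentage of genes with at least 1 region, by the eligible intron per gene, for genes with (green) and without (grey) H3K4me3 at the promoter; bars are 95% intervals for counting error. The densities are alike up to 50 kb and part above 50 kb, to 9.57 against 2.77 per Mb over 200 kb.

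The difference by promoter was present at each distance from the nearest TSS. By the distance of the region's midpoint from that TSS, the ratio of hosts with H3K4me3 to others was 1.61 (1.44 to 1.80) at 10 to 20 kb, 1.89 (1.73 to 2.06) at 20 to 50 kb and 2.42 (2.15 to 2.73) at 50 to 100 kb. It was 2.72 (2.33 to 3.19) at 100 to 200 kb and 3.64 (2.85 to 4.65) beyond. Genes with H3K4me3 kept 9.64, 10.8, 9.93 and 8.76 regions per Mb over these distances up to 200 kb, and 6.33 beyond. Genes without it fell from 5.99 per Mb at 10 to 20 kb to 1.74 beyond 200 kb.

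Intron 1 of the canonical transcript held 1420 of the 5262 regions in canonical introns (27%), intron 2 held 923, intron 3 held 585, and intron 4 or later 2334 (44.4%). The last intron held 314 (5.97%). These introns were long, with a median of 39.8 kb, and the nearest canonical exon was a median of 9.26 kb away. Within the intron, from its 5′ to its 3′ end, 4 stretches of equal length held 19%, 26%, 29% and 26% of regions. The rule on TSS distance removes the start of many introns, so the low share at the 5′ end is in part set by it.

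In genes with at least 2 canonical introns, the density was 9.47 regions per Mb in intron 1 and 6.25 in later introns, a ratio of 1.52 (1.43 to 1.61, exact conditional test, p = 6.54e-38). By rank it went from 9.47 in intron 1 through 8.09 in intron 2 and 7.0 in intron 3 to 5.02 in intron 10 and later. This difference was found in genes with H3K4me3 at the promoter, at 15.6 against 8.21 per Mb (ratio 1.90, 1.77 to 2.04). In genes without it the densities were 3.88 and 4.32 (ratio 0.899, 0.791 to 1.02). The 2 ratios differed by a factor of 2.11 (1.83 to 2.43, Wald interval). Regions that share an intron are not independent either, so these intervals are too narrow.

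**Figure D3:**
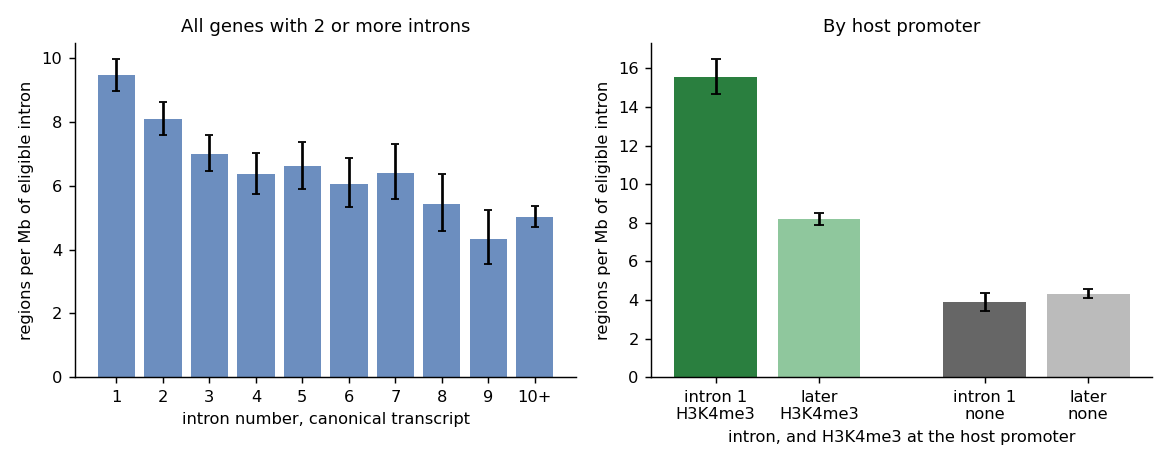
Left, intronic distal ARID1A regions per Mb of eligible intron by intron number of the canonical transcript, and right, intron 1 against later introns in genes with (green) and without (grey) H3K4me3 at the promoter; bars are 95% Poisson intervals. Intron 1 of genes with H3K4me3 stands at 15.6 per Mb, above the other 3 classes.

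The excess in intron 1 of genes with H3K4me3 held at matched distances from the nearest TSS. The ratio of intron 1 to later introns was 1.97 (1.72 to 2.26) at 10 to 20 kb, 1.98 (1.78 to 2.21) at 20 to 50 kb, 1.61 (1.34 to 1.92) at 50 to 100 kb and 1.99 (1.5 to 2.61) at 100 to 200 kb. Beyond 200 kb only 6 regions lay in such introns. In genes without H3K4me3 the ratio was below 1 at each distance, with intervals that held 1 in each but 100 to 200 kb, where it was 0.428 (0.241 to 0.712, 16 regions in intron 1).

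Some hosts had all their regions in 1 intron, and those named here were picked from the named genes for that. All 7 regions of SMURF1, a ubiquitin ligase of the TGF-beta and BMP pathways, lay in intron 1, 15.8 to 45.2 kb from the canonical TSS. All 7 of FMNL2, a formin of lamellipodia and filopodia, lay in intron 1, from 80.3 to 172 kb. WWC1, the Hippo regulator KIBRA, and INPP4A, a lipid phosphatase, had 4 of 4 in intron 1. CDH1, which encodes E-cadherin, had 5 of 5 in intron 2, 18.2 to 61.3 kb from its TSS. BCL2L1, LPAR3 and PKP1 also had all of theirs in intron 2. The canonical transcripts of BCL2L1 and LPAR3 have only 2 introns, though, against 15 in CDH1 and 13 in PKP1.

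Groups of genes were then compared by density, each against 7.05 regions per Mb and 23.3% hosts over all 11811 eligible genes. These lists were drawn up with results of these data known, so their counts are descriptions with no test. They differ in length and promoter state, which go with density as above, and the 9.83 per Mb of all genes with H3K4me3 is the nearer background for lists in which most genes have it.

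The lists of cytoskeleton and adhesion genes stood at 10.9 to 19.6 regions per Mb, and most of their genes had H3K4me3 at the promoter. Of 42 regulators of the actin cytoskeleton, 36 (85.7%) were hosts, with 125 regions at 15.4 per Mb and H3K4me3 at 95.2% of promoters. They were long genes, with a median of 146 kb of eligible intron against 29.0 kb over all genes. Besides MYO1E and FMNL2, PALLD, an actin crosslinker, had 10 regions and MYO10, the filopodial myosin, had 7. The formins DIAPH2 and DIAPH3 had none in 879 and 460 kb, with H3K4me3 at both promoters. Of 31 genes of cell-matrix adhesion, 14 were hosts, with 55 regions at 19.6 per Mb, of which DST and LPP held 16 each. ITGA2, the collagen receptor subunit, had 4 regions and LAMA3, a chain of epithelial laminin, had 3, while ITGB6, an epithelial integrin, had none in 85.6 kb. Of 33 genes of cell-cell junctions, 16 were hosts, with 50 regions at 10.9 per Mb. PARD3, a polarity protein, had 14 of these, TJP1 (ZO-1) 6 (1 within the canonical transcript) and CDH1 5. PATJ, another polarity protein, had none in 351 kb.

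Among transcription factors of epithelial cells, 17 of 24 were hosts, with 81 regions at 17.2 per Mb and H3K4me3 at every promoter. TP63, the basal cell factor, had 12 regions at 5.25 per 100 kb, with H3K4me3 but neither ARID1A antibody at its promoter. RUNX2 had 8 (4 within the canonical transcript) and BACH1 6 (none within it). PPARG and KLF5, regulators of urothelial differentiation, had none in 68.0 and 6.64 kb of eligible intron, where a count of 0 tells little.

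Signalling genes were mostly above the density of all genes too. H3K4me3 was at 85.7% of Hippo, 96.8% of RAS and MAPK, 86.2% of TGF-beta and 68% of receptor tyrosine kinase promoters, against 58.4% of all genes. In the same order, their median eligible intron was 86.3, 92.6, 67 and 90.4 kb, against 29.0 kb. The 9.83 per Mb of all genes with H3K4me3 is thus the nearer background here as well. Hippo pathway genes (14 hosts of 28) had 43 regions at 16.0 per Mb, with 8 in PTPN14, a phosphatase that binds YAP. There were 4 each in TEAD1, the DNA-binding partner of YAP, WWC1 and FRMD6. None of those in FRMD6 lay within its canonical transcript. RAS and MAPK genes (19 of 31) had 51 at 15.5 per Mb, with 8 each in MAP3K5 and RASAL2, a RAS GTPase-activating protein, and none in BRAF over 170 kb. TGF-beta and SMAD genes (17 of 29) had 38 at 15.5 per Mb, with 7 in SMURF1 and 6 each in LTBP1, which binds latent TGF-beta, and TGFBR3. Receptor tyrosine kinases and their ligands (15 of 25) had 57 at 11.2 per Mb, with 10 in ROR1, 8 in IGF1R, 6 in NTRK2 and 5 in EPHA4. NTRK3, a neurotrophin receptor like NTRK2, had none in 301 kb, and no H3K4me3 at its promoter. The longest genes without H3K4me3 had 2.77 regions per Mb, so this count of 0 tells little. KIT and PDGFRA had none in 44.1 and 35.8 kb, stretches too short for a count of 0 to tell.

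The PI3K, AKT and mTOR genes bear on the question named in the series title, how ARID1A relates to PI3K signalling. Of 39 such genes, 16 (41.0%) were hosts, with 44 regions at 9.98 per Mb. They had H3K4me3 at 79.5% of promoters and a median of 83.0 kb of eligible intron. This density was near the 9.83 per Mb of all genes with H3K4me3. Genes with H3K4me3 and 50 to 100 kb of eligible intron had 10.6 per Mb, and 42.8% of them were hosts. PHLPP1, a phosphatase that acts on AKT, had 8 regions, RPTOR, the mTORC1 scaffold, and INPP4B, a lipid phosphatase, 6 each, and INPP4A 4. PIK3C2G, a class II PI3K, had none in 351 kb, with no H3K4me3 at its promoter. PIK3R3, a regulatory subunit of PI3K, had 1 region of 795 bp in intron 1, 47.5 kb from the canonical TSS, with H3K4me3 and both antibodies at the promoter. PIK3IP1, an inhibitor of PI3K, had no eligible intron.

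SWI/SNF and PRC2 subunits, with a median of 40.4 kb of eligible intron, had 6 hosts of 35 (17.1%) and H3K4me3 at 97.1% of promoters. This share of hosts was near the 18.4% of genes with H3K4me3 and 20 to 50 kb of eligible intron. Their density was lower, with 12 regions at 5.39 per Mb, against 7.67 per Mb in those genes. ARID1B, the paralogue of ARID1A, had 4 regions, BICRA 3 and JARID2 2. ARID1A had 1 region of 977 bp, in intron 4. SMARCC1 and AEBP2 had none in 175 and 239 kb.

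Genes of other lineages showed how length and density part. Of 36 neuronal adhesion and receptor genes, 15 (41.7%) were hosts, above the 23.3% of all genes. Among all genes without H3K4me3 and with over 200 kb of eligible intron, 44.3% were hosts, at 2.77 per Mb. In the neuronal genes a median of 1075 kb of eligible intron left a density of 0.713 per Mb, with H3K4me3 at 8.33% of promoters. RBFOX1, CNTNAP2 and PTPRD had none in 2291, 2235 and 2213 kb, while GRM5, a glutamate receptor, had 4. Of 30 muscle genes, 14 were hosts at 3.85 per Mb, with 17 of the 38 regions in PDE4D, which many tissues express, and none in SGCZ over 1113 kb. Of 28 immune cell genes, 14 were hosts at 8.17 per Mb, with H3K4me3 at 17.9% of promoters and a median of 92.75 kb of eligible intron. Genes without H3K4me3 and with 50 to 100 kb had a like density of 7.99 per Mb, and 33% of them were hosts. FYB1, an adaptor of T cells, had 7 of the 40 regions and TOX, a T cell factor, 6. Neither had H3K4me3 at the promoter, but FYB1 had both ARID1A antibodies there and TOX had neither.

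The sequences of the regions were searched for 16 words of transcription factor sites and 2 control words, on both strands, in the central 200 bp. The short words were TGACTCA for AP-1, TGACGTCA for the CRE, ACATTCC for TEAD factors, AACCNGTT for GRHL factors, CCACACCC for KLF factors, GGGCGGG for the GC box and ACAGGAAG for ETS factors. The others were AGATAA for the GATA family, TGTTTAC for the FOX family, TTGCNNAA for the C/EBP family, TGTGGTT for the RUNX family, TTCNNNGAA for the STAT family and TGACNNNGC for the antioxidant response element (ARE), with an NFI palindrome, a CTCF word and an element of the p53 family. The ARE word can overlap the AP-1 word. The controls were the AP-1 and TEAD words read backwards without complement, which gives ACTCAGT for the one and CCTTACA for the other. Each region was compared with a flank, a window of the same length 2 kb away, which 5960 regions had. A word is a description of letters and not of binding.

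The AP-1 word was in 1218 of 6132 regions (19.9%, 18.9 to 20.9). Among the regions with a flank it was in 20.1%, against 2.62% of flanks. In 1161 pairs the region alone had it and in 120 the flank alone, a ratio of 9.67 (exact McNemar test, adjusted p = 3.67e-213 over the 18 words). The words piled up at the centre, with 111 and 117 per 1000 regions in the 100 bp on either side of the midpoint and 16.1 in the outermost 100 bp, 1500 bp away.

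Of the 18 words, 14 (77.8%) were called higher in regions than in flanks and 0 (0%) lower, and 1 of the 14 was a control: the reversed AP-1 word was in 4.26% of regions and 2.70% of flanks (ratio of discordant pairs 1.60, exact McNemar test, adjusted p = 1.08e-05). The reversed word shares the letters ACTCA with the AP-1 word and is complete wherever GT follows TGACTCA. AP-1 words may thus raise its count, which was not tested. The 1.60 is therefore a point of reference and not a floor for words without a known site. Above 1.60 stood AP-1 (9.67), the NFI palindrome (4.50, in 0.453% against 0.101%), GRHL (2.31, 2.94% against 1.31%), FOX (1.96, 5.79% against 3.05%) and RUNX (1.74, 5.97% against 3.54%). GRHL, FOX and RUNX factors are regulators of epithelial enhancers. TEAD (1.54, 4.68% against 3.10%), the p53 family element (1.49), C/EBP (1.34) and GATA (1.25) were called but stood below the reversed AP-1 control. So did the GC box (1.56), ETS (1.45), ARE (1.24) and STAT (1.17). CRE, KLF, CTCF and the reversed TEAD word (1.95% against 1.81%) were not called. GC content was 43.2% on average in regions and 42.0% in flanks.

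**Figure D4:**
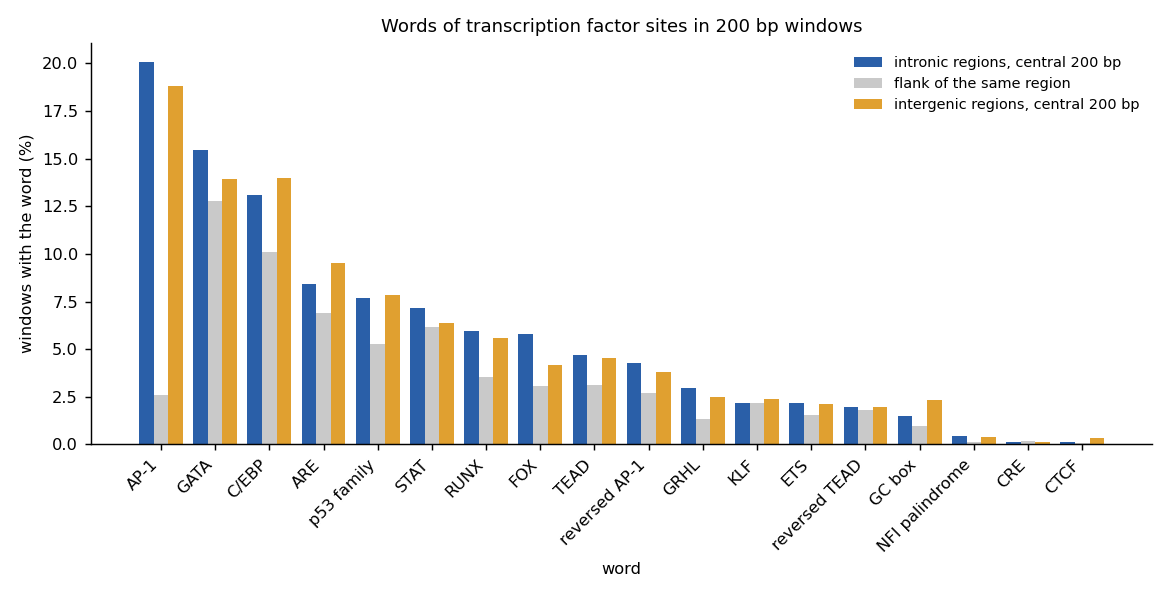
Percentage of 200 bp windows that hold each word, for intronic distal ARID1A regions with a flank (blue), their flanks (grey) and all intergenic shared regions (orange). AP-1 stands at 20.1% in intronic regions, 2.62% in flanks and 18.8% in intergenic regions, and the reversed AP-1 control at 4.26% and 2.70% in the first 2.

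**Figure D5:**
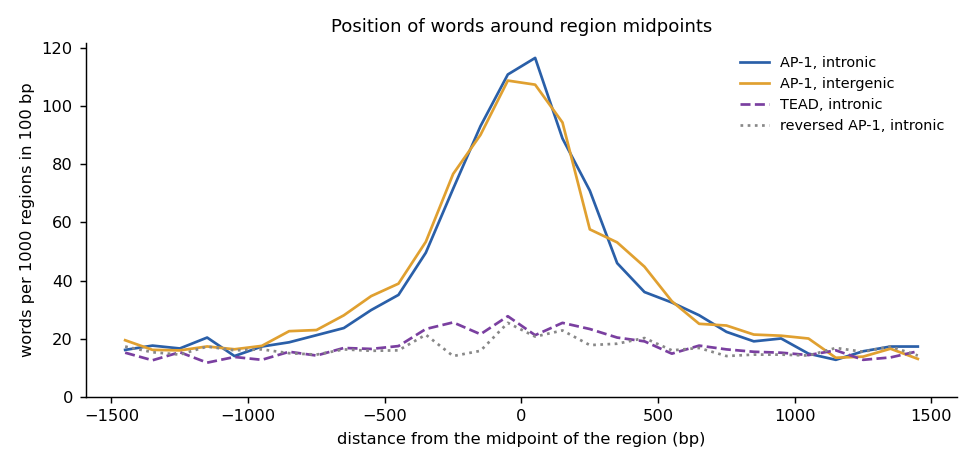
Words per 1000 regions in bins of 100 bp by distance from the midpoint of the region, for the AP-1 word in intronic (blue) and intergenic (orange) regions and for the TEAD (purple, dashed) and reversed AP-1 (grey, dotted) words in intronic regions. The AP-1 lines rise to 117 and 109 at the centre, and the other lines stay under 30.

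Intronic regions were much like intergenic ones in these words. The 5138 shared regions outside genes, 10 to 100 kb from a TSS and without H3K4me3, held the AP-1 word in 18.8%, a difference of 1.04 percentage points (-0.420 to 2.50, Wald interval, Fisher's exact test, adjusted p = 0.331). Of the 18 words, 2 (11.1%) were called different. FOX was in 5.76% of intronic and 4.19% of intergenic regions (1.57 points, 0.772 to 2.37, adjusted p = 0.00252 by Fisher's exact test), and the GC box in 1.48% and 2.32% (-0.832 points, -1.34 to -0.321, adjusted p = 0.0113 by Fisher's exact test). Mean GC content was 43.2% in intronic and 45.3% in intergenic regions, and its part in either difference was not tested. The 5752 shared regions at H3K4me3 promoters stood apart, with AP-1 in 2.24%, the GC box in 33.0% and a GC content of 64.4%.

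By the promoter state of the host, 1 of the 18 words (5.56%) was called different. AP-1 was in 18.7% of regions whose host had H3K4me3 and 22.6% of those whose host lacked it, a difference of -3.95 points (-6.18 to -1.72, Wald interval, Fisher's exact test, adjusted p = 0.00798). The test counted regions, while promoter state belongs to the gene. Regions of a gene are not independent, so this p-value may be too small and the interval too narrow. Region width, which goes with the central AP-1 share, was not matched. In the central 100 bp the difference was -1.64 points (unadjusted p = 0.0564, Fisher's exact test). In the central 400 bp it was -2.69 points (unadjusted p = 0.0446, Fisher's exact test). AP-1 was in 17.8% of regions in intron 1 (15.8 to 19.8) and in 20.5% of those in later introns (19.2 to 21.8). By the number of regions in the host it was in 22.6% for hosts with 1, 19.5% for 2 or 3, 19.2% for 4 to 9 and 17.4% for 10 or more. Region counts, introns and promoter state go together, so these shares are not separate findings.

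In single hosts the count of AP-1 words varied around that share. NAV2 had the word in 8 of its 19 regions, MACROD2 in 6 of 27, MAML2 and EGLN3 in 5 each of 22 and 19, and MYO1E in 4 of 14. TP63 had it in 0 of 12 regions, SMURF1 in 0 of 7, CDH1 in 0 of 5 and PDLIM1 in 0 of 5, in the central 200 bp. With so few regions a gene, such counts do not tell hosts apart. TEAD and AP-1 words were together in 54 regions, and TEAD was in 4.43% of regions with AP-1 and 4.76% of those without.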

How the data were processed

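CUT&RUN of RT112 cells gave 12 samples in 4 groups of 3 (ARID1A Abcam, ARID1A CST, H3K4me3, IgG). The labels do not say whether replicates were separate cultures. The authors deposited 3 lists of region positions on hg38 (other units: chromosome, start and end, with no score), called with SEACR and merged over replicates; the processing notes also name bcl2fastq, cutadapt, Picard, deepTools and bedtools. Per the study's methods only uniquely mapping reads were kept, so regions in repeats may be under-represented. The methods and the list names differ on the SEACR threshold. There are no counts, so depth and replicate spread are unknown. Columns of unmatched samples numbered 0. Regions on other sequences (152, 159 and 14) were left out.

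Genes, exons and TSSs came from GENCODE 44 (19626 protein-coding genes). Promoters were windows of 1 kb on either side of any TSS. Eligible intron was gene body outside protein-coding exons, over 10 kb from protein-coding TSSs, over 1 kb from lncRNA TSSs and outside gaps and H3K4me3 regions. Rates were compared with exact conditional binomial tests, paired words with exact McNemar tests and unpaired shares with Fisher's exact tests, with Benjamini-Hochberg adjustment (Python 3.11.15, SciPy 1.17.1, pysam 0.24.0). Genes were named by number of regions (15), density (10), number without H3K4me3 (8) and, in 13 gene lists, the 4 hosts with most regions and 3 eligible genes without any; some of these genes and sequences are not reported here. The scripts were tested on simulated data. The members, lists and words were chosen with earlier results of these data known. The comparisons by distance class, the test of intron 1 between promoter states, the Alu letters and 3 alternatives were added after seeing the data.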

Additional observations from a re-analysis of the deposited data

How the results depend on the processing

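Of 122 values recomputed under other settings, 110 kept their direction and side of the threshold, 11 moved and 1 lost its call. Values with no test were counted among the 110 if they stayed within counting error. Tests were judged here on p-values before adjustment. Some of the 110 still changed in size by over 1.5 times: the H3K4me3 density ratio of 2.26 was 1.43 in genes with at most 200 kb of eligible intron and 1.31 with each gene counted once, and the intron 1 ratio of 1.52 was 5.69 with each intron counted once, as host or not, which leaves intron length out. With regions at least as wide as the list's median, 2360 regions remained, 65.4% of hosts had 1 region, 66.6% had H3K4me3 and 55.3% both antibodies at the promoter. Hosts with 1 region were 53.4% where the antibodies had to cover each other by 50% and 53.5% where regions under 1 kb apart were joined. Both antibodies were at 51.0% of hosts for regions over 20000 bp from a TSS, at 51.1% with promoter windows of 500 bp (41.8% of eligible genes) and at 57.8% with 3 kb (46.1%). With the most upstream TSS alone, H3K4me3 was at 57.2% of hosts (53.8% of eligible genes) and both antibodies at 43.1% (37.3%). The AP-1 difference by host promoter was -1.64 points in the central 100 bp (exact p = 0.0564), the setting that lost a call; the cause was not tested. The density ratios, with the canonical transcript as the gene body included, stayed on their side under each setting. No paired analysis was possible because the lists were merged over replicates, and for the same reason no replicate could be left out.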

Other observations

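By chromosome, the density of intronic distal regions ran from 2.88 per Mb of eligible intron on X (113 pairs in 39.3 Mb) to 10.7 on chromosome 20 (197 pairs in 18.4 Mb). Chromosomes 21 and 17 had 9.73 and 9.64, and the lowest autosome was 12, with 5.31. Copy number in RT112 was not measured here, and its part in these densities was not tested.

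Of the 6132 regions, 457 (7.45%) also lay inside a lncRNA gene.

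Narrow regions held the AP-1 word at their centre more often than wide ones. In 4 classes of equal size from the narrowest to the widest, the central 200 bp held it in 26.8%, 20.9%, 18.7% and 13.1%. Over the whole region the order was the other way, at 56.7%, 58.6%, 64.4% and 74.9%, where wider regions have more letters to hold it.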
